A study of Homo sapiens with 6 samples.

Results

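The genes described are 34 members of the sterol and fatty acid synthesis programme that the sterol regulatory element-binding proteins (SREBPs) control. They were found by symbol among the 25545 rows of the table of expression values, and all 34 have a row. By role, 19 encode steps of sterol synthesis, 6 encode SREBP regulators or sterol transport, and 9 encode steps of fatty acid and lipid synthesis. RNA-seq was performed on BT-549 cells, a long-established line of triple-negative breast cancer (TNBC), transfected with a control siRNA (CsiRNA, 3 libraries) or with an siRNA against the lncRNA NEAT1 (NEAT1siRNA, 3 libraries) for 48 h. Both groups were grown in RPMI1640 with fetal bovine serum and insulin, and the titles of both carry the prefix BT-549/tet, with no doxycycline treatment in the labels. Each group has a single siRNA name, so a response to the sequence of the siRNA and a response to NEAT1 loss cannot be told apart.

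Cells make cholesterol from acetyl-CoA through mevalonate, isoprenoids, squalene and lanosterol. When sterols in the endoplasmic reticulum are low, SCAP carries SREBP precursors to the Golgi, where proteases release their N-terminal part to enter the nucleus and activate transcription. INSIG1 and INSIG2 hold SCAP in the endoplasmic reticulum when sterols are plentiful. SREBP-2, from SREBF2, is known mainly for sterol genes, and SREBP-1c, from SREBF1, mainly for fatty acid genes. TNBC cells, like other dividing cells, need both products for new membranes.

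NEAT1 checks the labels. It was at 13.4, 7.68 and 10.8 TPM (read counts scaled by gene length and library) in the 3 CsiRNA libraries and at 4.36, 2.96 and 2.73 TPM in the 3 NEAT1siRNA libraries. The ranges did not overlap, with a mean of 31.5% of the control level and a log2 fold change of -1.41 (SE 0.14, adjusted p = 1.21e-07, limma). The libraries held 15787055 to 20343909 recovered reads, and 4 short RNAs took 64.4% to 68.1% of all TPM but 2.30% to 3.01% of the reads. The cells had markers of a mesenchymal TNBC line, with VIM at 859 to 1112 TPM. ESR1 was at 0 and PGR and EPCAM at or near 0 in every library, while ERBB2 was at 5.76 to 6.36 TPM. Of the 13 markers of the line, 5 were tested, and 3 (60%) were called lower, against 8.98% of all genes tested. These were FN1 (log2 fold change -0.47), CDH2 (-0.34) and CD44 (-0.31), and their part in the results was not tested. Of the markers of other cell types, PTPRC, CD3E, PECAM1, VWF, ADIPOQ and PLIN1 were at or near 0, and CD68 was at 23.2 to 29.2 TPM. NEAT1siRNA replicates 1 and 2 stood furthest apart in a trend on GC content, with a Spearman's rho of GC content against the deviation from the group mean of 0.68 and -0.73 over 10423 genes.

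Silencing NEAT1 was accompanied by higher expression of 12 of the 34 members and lower expression of 1, ELOVL6. The other 21 did not pass the threshold, an adjusted p of 0.05 in limma on log2(TPM + 1). All 34 passed the filter of a mean of at least 1 TPM over the 6 libraries. Over all 10721 genes that passed it, 4.99% were called higher and 8.98% lower. The median log2 fold change was 0.16 over the members and -0.04 over all genes tested. All 3 NEAT1siRNA values lay above the CsiRNA range for 14 members, against 11.0% of all genes, and below it for 2 members, ELOVL6 and SCAP, against 19.3% of all genes. Higher genes made up 35.7% of all calls with TPM as deposited, 49.4% after quantile normalization and 54.8% after centring on the median. Members called higher numbered 17 and 18 after these scalings. Over all 10721 genes, those called higher numbered 535 with TPM as deposited, 1082 after quantile normalization and 1158 after centring. The count of 12 fell to 7 without CsiRNA replicate 2, to 7 at an adjusted p under 0.01 and to 5 with no filter on TPM. The count over all genes fell as well, from 535 to 401 without CsiRNA replicate 2 and to 242 of 18531 with no filter. For an adjusted p under 0.01 the count over all genes is not given here. Nothing in the labels ties the libraries to separate experiments beyond culture in triplicate, so the p-values measure only the spread between these samples. In bulk RNA, fewer cells expressing a gene and less of its RNA per cell cannot be told apart.

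**Figure D1:**
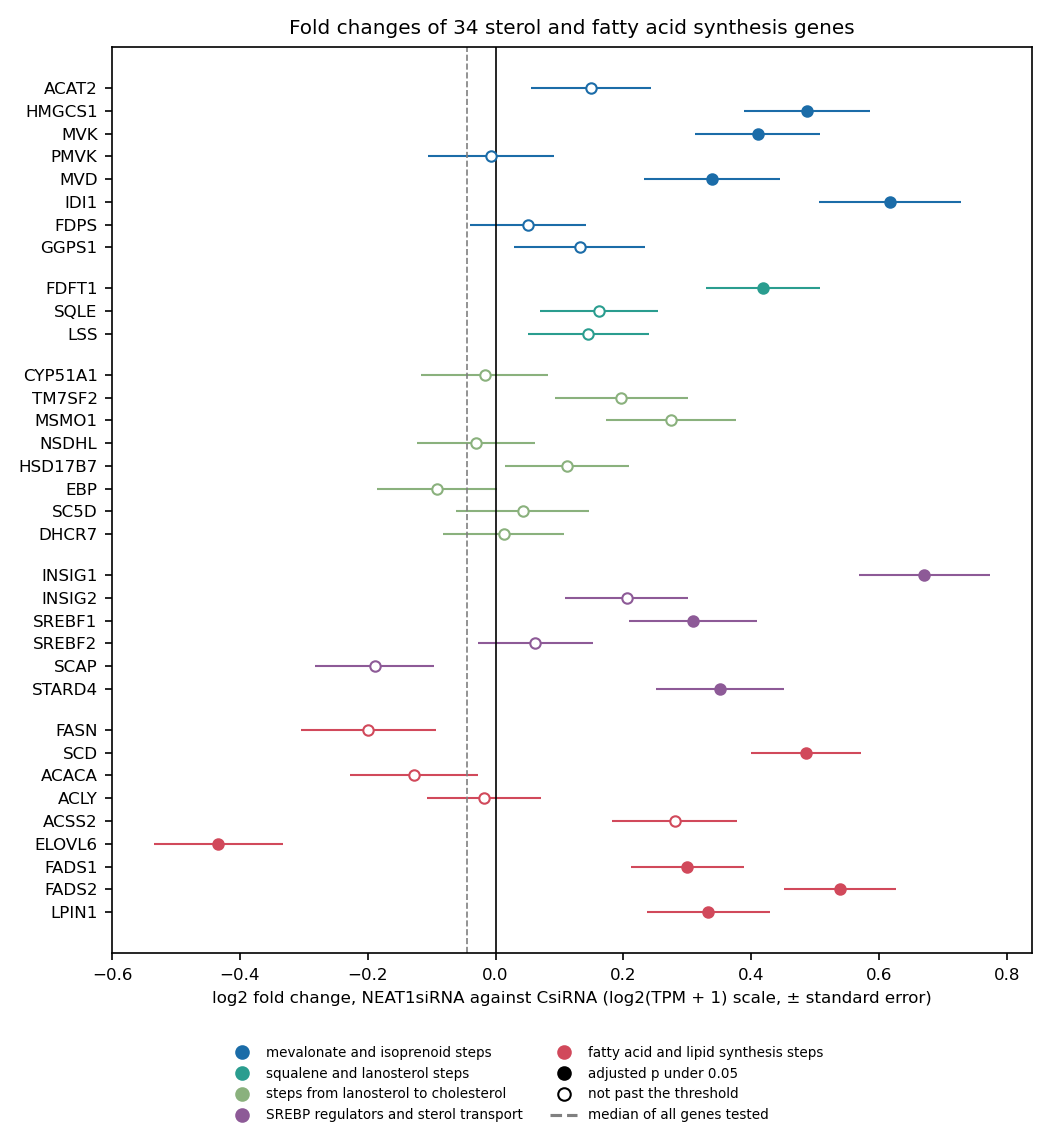
Log2 fold change of each of the 34 genes (x axis, NEAT1siRNA against CsiRNA on the log2(TPM + 1) scale, n = 3 libraries per group), grouped by role, with bars for the standard error, filled points for an adjusted p under 0.05 in limma and a dashed line at the median of all genes tested, -0.04. The filled points are 12 to the right of 0 and ELOVL6 to the left, and the 8 steps from lanosterol to cholesterol hold none.

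SREBPs bind sterol regulatory elements, usually beside a CCAAT box bound by NF-Y, so the promoters of the 34 genes were searched for these letters. The windows, from RefSeq on GRCh38.p14, run from 250 bases before to 50 bases after a start site, and 30 of the 34 members have at least 1. ACAT2, FDFT1, SQLE and FASN were not searched. The pattern TCACNCCAC, searched on both strands, was found in 1.39% of 27305 genes and in 1 member, SREBF2. The shorter CACNCCAC, which lies within the longer one, was found in 7.05% of genes and in 6 of 30 members, ACACA, IDI1, INSIG1, SC5D, SCD and SREBF2. CCAAT was found in 39.7% of genes and in 22 of 30 members, and the E-box CACGTG in 8.78% of genes and in 4 members, INSIG1, LSS, SC5D and SCAP. Members with and without a call both held CACNCCAC, CCAAT and CACGTG, while TCACNCCAC was only in SREBF2, which was not called. CACNCCAC was found in 3 of 11 members called higher and in 3 of 18 not called, and CCAAT in 8 of 11 and 14 of 18. CACGTG was found in 1 of 11 and 3 of 18. A match is a description of these letters and not a site.

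The 250 bases before the start are shown for 4 members that rose, INSIG1 (the largest change), HMGCS1 and MVK (early steps) and SCD (the most abundant member), and for SREBF2, which holds the longer pattern and did not pass the threshold. Each is written 5′ to 3′ on the strand of its gene, with capitals for matches to the patterns above on either strand (CCAAT reads ATTGG on the other strand).
INSIG1 (chr7:155297628-155297877, plus strand): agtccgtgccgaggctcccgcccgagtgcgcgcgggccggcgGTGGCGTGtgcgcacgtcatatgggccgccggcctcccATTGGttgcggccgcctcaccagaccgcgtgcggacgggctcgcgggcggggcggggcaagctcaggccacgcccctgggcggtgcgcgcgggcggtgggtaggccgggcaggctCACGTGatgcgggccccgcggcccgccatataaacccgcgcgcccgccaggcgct
HMGCS1 (chr5:43313413-43313662, minus strand): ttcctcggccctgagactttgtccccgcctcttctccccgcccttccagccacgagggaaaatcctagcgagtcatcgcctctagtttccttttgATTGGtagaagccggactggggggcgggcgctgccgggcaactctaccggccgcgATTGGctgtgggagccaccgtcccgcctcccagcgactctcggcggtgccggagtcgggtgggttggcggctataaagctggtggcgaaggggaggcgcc
MVK (chr12:109573544-109573793, plus strand): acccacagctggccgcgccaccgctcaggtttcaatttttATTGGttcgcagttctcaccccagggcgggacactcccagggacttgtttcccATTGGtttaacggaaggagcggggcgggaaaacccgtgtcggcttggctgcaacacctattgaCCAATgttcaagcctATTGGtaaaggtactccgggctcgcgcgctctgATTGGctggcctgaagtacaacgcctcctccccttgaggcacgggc
SCD (chr10:100346983-100347232, plus strand): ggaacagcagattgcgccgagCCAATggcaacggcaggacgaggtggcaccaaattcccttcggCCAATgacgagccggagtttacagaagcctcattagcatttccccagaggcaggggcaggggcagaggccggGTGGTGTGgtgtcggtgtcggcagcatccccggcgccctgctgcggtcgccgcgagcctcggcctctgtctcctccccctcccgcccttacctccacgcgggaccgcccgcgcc
SREBF2 (chr22:41832855-41833104, plus strand): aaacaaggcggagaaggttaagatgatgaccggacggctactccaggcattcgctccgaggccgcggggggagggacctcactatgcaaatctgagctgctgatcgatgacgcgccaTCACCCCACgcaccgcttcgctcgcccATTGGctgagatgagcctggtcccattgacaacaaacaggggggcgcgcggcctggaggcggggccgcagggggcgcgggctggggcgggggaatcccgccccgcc
In these bases MVK has 5 CCAAT matches, HMGCS1 and SCD have 2, and INSIG1 and SREBF2 have 1. HMGCS1 and MVK hold neither CACNCCAC nor CACGTG there, and both rose.

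Among the regulators, INSIG1 and SREBF1 rose, while SREBF2 and SCAP did not pass the threshold. Of the 6 regulators and sterol transport genes, 3 (50%) were called higher, against 4.99% of all genes tested. INSIG1, the sterol-dependent anchor of SCAP and itself an SREBP target, had the largest fold change of the 34 genes. Its level was 22.6, 20.5 and 18.9 TPM in the CsiRNA libraries and 30.8, 39.3 and 30.8 TPM in the NEAT1siRNA libraries. The lowest NEAT1siRNA library was above the highest CsiRNA library, and replicate 2 was highest. The mean went from 20.7 ± 1.88 to 33.6 ± 4.93 TPM (SD, n = 3). On the log2 scale the change was 0.67 (SE 0.10, adjusted p = 7.12e-05, limma). INSIG2, a related anchor with lower expression, was at 1.60, 1.78 and 1.51 TPM against 2.15, 2.05 and 1.91 TPM. These ranges did not overlap either, but its log2 fold change of 0.21 had an adjusted p of 0.166 in limma.

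SREBF1, which encodes SREBP-1, was at 15.9, 12.8 and 15.3 TPM with CsiRNA and at 20.3, 18.2 and 16.7 TPM with NEAT1siRNA. The groups did not overlap, though NEAT1siRNA replicate 3 lay close to the highest control. The log2 fold change of 0.31 (SE 0.10) had an adjusted p of 0.0396 in limma, and was no longer past the threshold without CsiRNA replicate 1 (0.36), CsiRNA replicate 2 (0.22) or NEAT1siRNA replicate 1 (0.24). SREBF1 shares exonic bases with RAI1 on the opposite strand, whose log2 fold change was 0.07. SREBF2, which encodes SREBP-2, was at 21.2, 19.7 and 20.6 TPM against 22.4, 21.2 and 20.7 TPM. These ranges overlapped and the log2 fold change was 0.06 (SE 0.09, adjusted p = 0.707, limma). Values of SREBF1 and SREBF2 are of their RNA and say nothing of cleavage of the protein.

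SCAP, the escort of the SREBPs, was at 13.3, 11.4 and 11.6 TPM with CsiRNA and at 10.7, 10.5 and 10.2 TPM with NEAT1siRNA. Every NEAT1siRNA library was below every CsiRNA library, with a log2 fold change of -0.19 (SE 0.09) and an adjusted p of 0.191 in limma. STARD4, a soluble carrier that moves cholesterol between membranes, was at 10.6, 9.64 and 9.52 TPM against 11.8, 15.1 and 12.1 TPM. It was higher in each NEAT1siRNA library and highest in replicate 2. Its log2 fold change was 0.35 (SE 0.10, adjusted p = 0.0203, limma), and without NEAT1siRNA replicate 2 it was 0.25 and not past the threshold, as was also so without CsiRNA replicate 2 (0.33).

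Of the 8 genes from acetyl-CoA to the isoprenoids, 4 (50%) were called higher, against 4.99% of all genes tested. HMGCS1 encodes the synthase that makes HMG-CoA. It was at 9.52, 9.17 and 8.54 TPM in the CsiRNA libraries and at 12.7, 15.04 and 11.8 TPM in the NEAT1siRNA libraries. These values did not overlap and gave a log2 fold change of 0.49 (SE 0.10, adjusted p = 0.00139, limma). MVK, the kinase that phosphorylates mevalonate, was at 3.01, 3.17 and 2.84 TPM against 4.91, 3.92 and 4.17 TPM. All 3 NEAT1siRNA values were above the control range, and the log2 fold change was 0.41 (SE 0.10, adjusted p = 0.00578, limma).

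MVD, which decarboxylates mevalonate diphosphate, was at 6.35, 4.75 and 5.39 TPM with CsiRNA and at 8.26, 7.04 and 6.34 TPM with NEAT1siRNA. It was the only called member whose ranges touched, since NEAT1siRNA replicate 3 was just below CsiRNA replicate 1. Its log2 fold change of 0.34 (SE 0.11, adjusted p = 0.0344, limma) was no longer past the threshold without CsiRNA replicate 2 (0.25), CsiRNA replicate 3 (0.33) or NEAT1siRNA replicate 1 (0.25). IDI1 encodes the isomerase that balances the isoprenoid building blocks. It was at 18.0, 19.4 and 16.3 TPM against 23.7, 34.7 and 26.5 TPM. No control reached the NEAT1siRNA range, replicate 2 stood above the other two, and the log2 fold change was 0.62 (SE 0.11, adjusted p = 0.000446, limma).

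The other 4 genes of these steps did not pass the threshold. ACAT2, which joins acetyl-CoA units, had a log2 fold change of 0.15, and GGPS1, which makes geranylgeranyl diphosphate for protein prenylation, of 0.13. FDPS, the farnesyl diphosphate synthase, was at 0.05 and PMVK, the second kinase of the pathway, at -0.01. The median of the 8 genes was 0.24.

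MVK lies head to head with MMAB, an enzyme of vitamin B12 metabolism, on chromosome 12, and their exons share bases on opposite strands. MMAB was at 2.27, 2.17 and 2.13 TPM with CsiRNA and at 2.91, 2.99 and 2.90 TPM with NEAT1siRNA. It is no member and is named because of this overlap. It rose as well, with a log2 fold change of 0.30 (SE 0.09, adjusted p = 0.0313, limma). The libraries were stranded but the strand setting of the counting is not given in the sources used here, so reads of the shared bases may have gone to either gene.

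**Figure D2:**
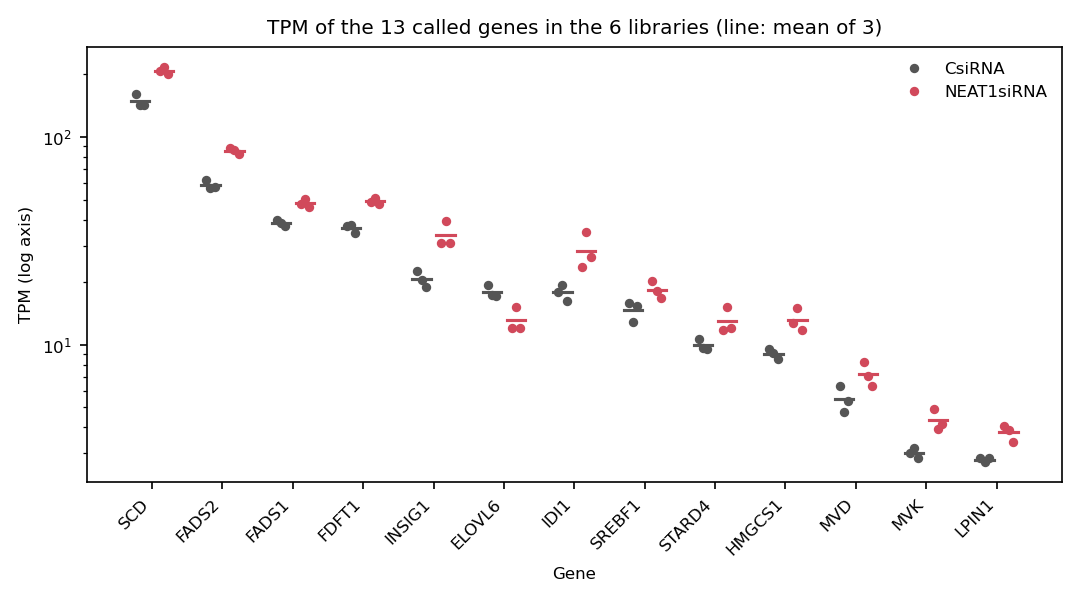
TPM (log y axis) of the 13 genes past the threshold, ordered by CsiRNA mean, in each of the 3 CsiRNA libraries (grey points) and 3 NEAT1siRNA libraries (red points), with a line at the mean of each group. The red points lie above the grey for 11 genes, touch them for MVD and lie below them for ELOVL6.

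Of the 3 genes from squalene to lanosterol, 1 (33.3%), FDFT1, was called higher, against 4.99% of all genes tested. FDFT1, the squalene synthase and the first step committed to sterols, was at 37.3, 37.5 and 34.3 TPM against 48.5, 50.9 and 47.5 TPM. The groups were far apart compared with the spread within each, and the log2 fold change of 0.42 (SE 0.09) had an adjusted p of 0.00213 in limma. SQLE, the squalene epoxidase and a rate-limiting enzyme, was at 77.8 to 89.1 TPM with CsiRNA and at 86.1 to 103 TPM with NEAT1siRNA. These ranges overlapped, with a log2 fold change of 0.16 (adjusted p = 0.266, limma). LSS, which closes the sterol rings, had 0.14.

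None of the 8 genes from lanosterol to cholesterol passed the threshold with TPM as deposited, and their median log2 fold change was 0.03. Over all genes tested 4.99% were called higher and 8.98% lower, so 0 of 8 alone does not set these steps apart. MSMO1 passed the threshold after quantile normalization, after centring on the median and with voom on recovered reads. It also passed with the block and GC and length trends removed, and without NEAT1siRNA replicate 1 (0.34). TM7SF2 passed after centring. MSMO1, a sterol demethylating oxidase, came nearest. It was at 29.6, 29.4 and 24.3 TPM against 30.5, 38.4 and 32.6 TPM, so that all NEAT1siRNA values were above the controls, with a log2 fold change of 0.27 (SE 0.10, adjusted p = 0.0728, limma). TM7SF2, a sterol reductase, had 0.20 and HSD17B7, a sterol ketone reductase, 0.11. SC5D (0.04), DHCR7 (0.01), CYP51A1 (-0.02), NSDHL (-0.03) and EBP (-0.09) lay nearer to 0 or below. They encode enzymes of other demethylations and reductions, and of the placing or shifting of double bonds. Their lowest adjusted p was that of EBP, 0.578 in limma. Over the 6 libraries, mean recovered reads of the 8 genes ran from 75.2 for TM7SF2 and 94.5 for HSD17B7 to 2506 for CYP51A1.

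**Figure D3:**
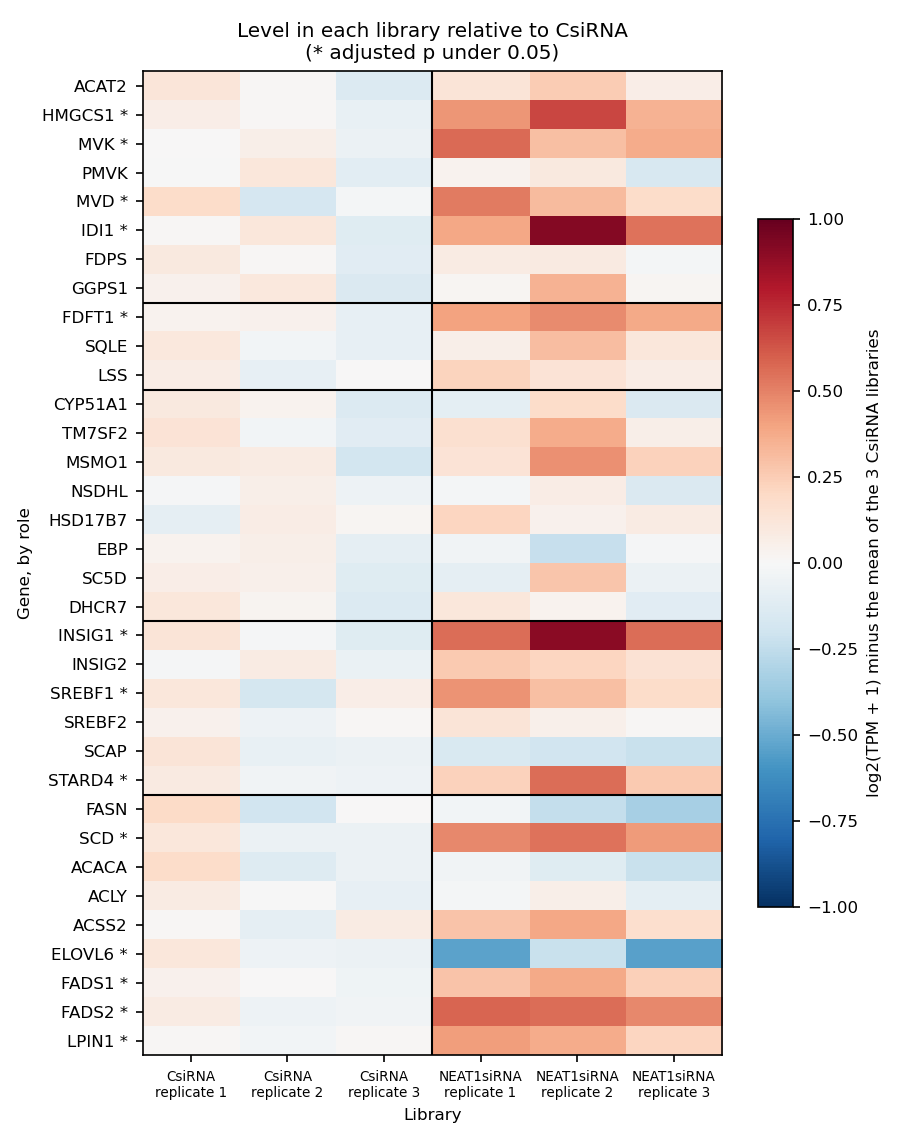
Level of the 34 genes (rows, by role) in each of the 6 libraries (columns), as log2(TPM + 1) minus the mean of the 3 CsiRNA libraries, red for higher and blue for lower, with an asterisk for an adjusted p under 0.05. The block of steps from lanosterol to cholesterol is mostly pale, MSMO1 and TM7SF2 in NEAT1siRNA replicate 2 being its darkest cells, and the rows of IDI1, HMGCS1, INSIG1 and STARD4 are darkest in NEAT1siRNA replicate 2.

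Among the fatty acid genes, LPIN1 and the desaturase genes SCD, FADS1 and FADS2 were called higher. ELOVL6 was called lower, and FASN, ACACA, ACLY and ACSS2 did not pass the threshold, ACSS2 lying just outside it. No test compared kinds of enzyme. SCD, which places the first double bond in stearate and palmitate, was the most abundant member. Its level was 161, 143 and 143 TPM with CsiRNA and 208, 218 and 201 TPM with NEAT1siRNA. The mean was 1.40 times that of the controls with no overlap, a log2 fold change of 0.49 (SE 0.09, adjusted p = 0.000353, limma).

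FADS2, the delta-6 desaturase of polyunsaturated fatty acids, was at 62.3, 56.9 and 57.5 TPM against 88.7, 87.0 and 82.5 TPM. Its 3 NEAT1siRNA values were close together and all above the controls, with a log2 fold change of 0.54 (SE 0.09, adjusted p = 0.000127, limma). FADS1, the delta-5 desaturase, was at 39.9, 38.7 and 37.5 TPM against 47.3, 50.5 and 45.9 TPM. The groups did not overlap. Its log2 fold change was 0.30 (SE 0.09, adjusted p = 0.0241, limma), and it was not past the threshold without CsiRNA replicate 1 (0.32), 2 (0.30) or 3 (0.28). FADS1 and FADS2 are neighbours on chromosome 11 and share exonic bases on opposite strands, and FADS2 shares exonic bases with FEN1, a DNA repair nuclease, on the same strand. FEN1 had a log2 fold change of -0.13, and FADS3, the next gene of the family, of -0.01, a sign that other scalings turned.

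LPIN1, a phosphatidate phosphatase of glycerolipid synthesis, was at 2.84, 2.72 and 2.84 TPM against 4.07, 3.91 and 3.40 TPM. All NEAT1siRNA libraries were above the controls, with a log2 fold change of 0.33 (SE 0.10, adjusted p = 0.0207, limma) that was not past the threshold without CsiRNA replicate 1 (0.34), CsiRNA replicate 2 (0.32) or NEAT1siRNA replicate 1 (0.29). ACSS2, which makes acetyl-CoA from acetate, was at 2.23, 2.02 and 2.39 TPM against 2.91, 3.20 and 2.61 TPM. These did not overlap either, and its log2 fold change of 0.28 (SE 0.10) had an adjusted p of 0.0576 in limma, just outside the threshold. ACSS2 passed it after quantile normalization, centring on the median, eBayes with no trend and voom on recovered reads. It also passed with GC and length trends removed, with or without the block. At the low levels of both genes the added 1 TPM makes the log2 fold change smaller than the ratio of means, which was 1.36 for LPIN1 and 1.31 for ACSS2.

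ELOVL6, which lengthens palmitate to stearate and so supplies the substrate of SCD, was the member that fell. It was at 19.5, 17.3 and 17.1 TPM with CsiRNA and at 12.1, 15.2 and 12.01 TPM with NEAT1siRNA. Every NEAT1siRNA library was below the controls, replicate 2 being the nearest to them, and the log2 fold change was -0.43 (SE 0.10, adjusted p = 0.00455, limma). FASN, the fatty acid synthase, was at 21.9, 16.5 and 19.1 TPM against 18.7, 16.0 and 14.9 TPM. Its ranges overlapped, and its log2 fold change of -0.20 (SE 0.11) had an adjusted p of 0.226 in limma. ACACA, the acetyl-CoA carboxylase that commits carbon to fatty acids, had -0.13 and ACLY, which makes cytosolic acetyl-CoA from citrate, -0.02.

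Set side by side, 5 of 19 sterol genes (26.3%) and 4 of 9 fatty acid genes (44.4%) were called higher, and 0 and 1 lower. Over all genes tested, the shares were 4.99% higher and 8.98% lower. The fatty acid count was 2 without CsiRNA replicate 1 or without CsiRNA replicate 2. In these fits 376 and 401 of all genes were called higher, against 535 in the main fit. The median log2 fold change was 0.14 for the sterol genes and 0.28 for the fatty acid genes, against -0.04 for all genes tested. The order of these medians turned with the filter. With genes of at least 5 TPM, LPIN1 and ACSS2 were left out with some sterol genes, the fatty acid median was -0.02, and the sterol genes lay above it by 0.15. The fatty acid genes ranged from -0.43 (ELOVL6) to 0.54 (FADS2), and the sterol genes from -0.09 (EBP) to 0.62 (IDI1). Both routes held genes that rose beside genes that did not pass the threshold. No test of the difference between the routes was made.

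By library, the medians of the sterol genes relative to the CsiRNA mean were 0.13, 0.28 and 0.06 in NEAT1siRNA replicates 1, 2 and 3, and 0.07, 0.04 and -0.11 in the 3 CsiRNA libraries. The NEAT1siRNA replicate 3 median was thus within the CsiRNA range. For the fatty acid genes they were 0.28, 0.37 and 0.17 against 0.08, -0.05 and -0.04, and the groups did not overlap. All genes tested had medians of -0.05, 0.02 and -0.11 against 0.07, -0.02 and -0.06. Among the 12 members called higher, NEAT1siRNA replicate 2 held the highest value for 7, replicate 1 for 5 and replicate 3 for 0. The rho of GC content against the deviation from the group mean was -0.73 in this replicate 2 and 0.68 and 0.13 in replicates 1 and 3, and -0.21, -0.34 and 0.47 in the 3 CsiRNA libraries. With trends on GC content and transcript length removed, 13 members were called higher, among them the same 12, and 1 lower.

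**Figure D4:**
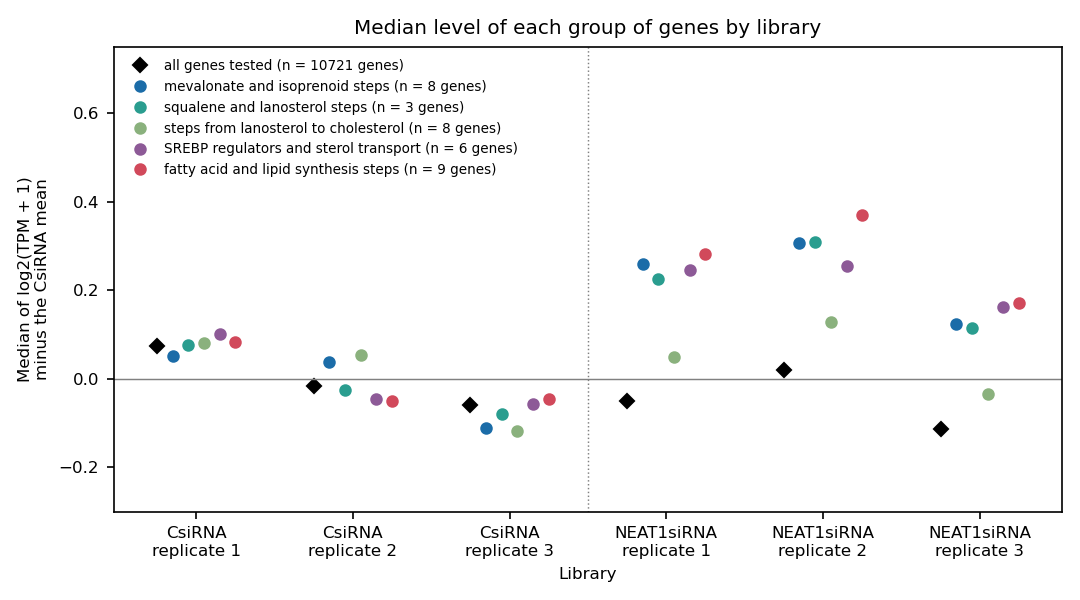
Median over the genes of each role (coloured points) and over all genes tested (black diamonds) of log2(TPM + 1) minus the CsiRNA mean, in each of the 6 libraries. In each NEAT1siRNA library every role lies above the diamond, with the steps from lanosterol to cholesterol lowest, and in replicate 3 the roles run from -0.03 to 0.17 with the diamond at -0.11.

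The pathway holds further genes that are no members. Of 21 further sterol genes and SREBP targets with a row, 17 were tested. Of these 17, 1 (5.88%) was called higher and 0 lower, against 4.99% and 8.98% of all genes. The median log2 fold change of the 17 was 0.01. The called gene was ERG28, a scaffold of the sterol demethylation complex, with 0.29 (adjusted p = 0.0293, limma). It was named after its values were seen, and it was not past the threshold without CsiRNA replicate 1 (0.29), 2 (0.30) or 3 (0.29) or NEAT1siRNA replicate 1 (0.28).

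Of 16 genes of SREBP processing and sterol sensing, all tested, 0 were called higher and 2 (12.5%) lower, against 4.99% and 8.98% of all genes, and the median log2 fold change was -0.04, as over all genes. Both are named here after their values were seen. ERLIN1, an endoplasmic reticulum scaffold for sterol-regulated degradation, was at 38.5, 35.9 and 32.1 TPM against 25.5, 28.7 and 24.8 TPM, a log2 fold change of -0.42 (SE 0.10, adjusted p = 0.00416, limma). RNF145, a sterol-responsive ubiquitin ligase of the endoplasmic reticulum, had -0.31 (adjusted p = 0.0277, limma). It was not past the threshold without CsiRNA replicate 1 (-0.27) or 2 (-0.31) or NEAT1siRNA replicate 1 (-0.29) or 3 (-0.27). None of 8 partner transcription factors (NFYA, NFYB, NFYC, SP1, CREB1, ATF1, USF1 and USF2) passed the threshold. Their log2 fold changes ran from -0.16 to 0.19, with a median of 0.06. Given the shares of 4.99% and 8.98% over all genes, 0 of 8 alone does not set these factors apart.

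In the opposing liver X receptor (LXR) and sterol efflux genes, 9 of 15 with a row were tested. Of these 9, 2 (22.2%) rose and 1 (11.1%) fell, against 4.99% and 8.98% of all genes. The median log2 fold change of the 9 was 0.03. MYLIP, an LXR-induced ubiquitin ligase, was at 3.75, 2.93 and 2.98 TPM with CsiRNA and at 5.60, 5.83 and 5.16 TPM with NEAT1siRNA. Its ranges were apart, with a log2 fold change of 0.63 (SE 0.10, adjusted p = 8.99e-05, limma). NPC1, which exports cholesterol from lysosomes, was at 32.4, 26.8 and 26.6 TPM against 19.1, 18.96 and 15.4 TPM. It was lower in all 3 NEAT1siRNA libraries, with a log2 fold change of -0.65 (SE 0.10, adjusted p = 8.89e-05, limma). RXRA, the partner receptor of LXR, had 0.33 (adjusted p = 0.0290, limma) and was named after its values were seen. It was not past the threshold without CsiRNA replicate 2 (0.28) or 3 (0.30) or NEAT1siRNA replicate 1 (0.30). ABCA1, the main LXR-induced cholesterol exporter, was at most 0.118 TPM in any library and was not tested. With no filter on TPM, ERG28, ERLIN1, RNF145 and RXRA were not past the threshold.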

How the data were processed

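RNA-seq was deposited for 3 CsiRNA and 3 NEAT1siRNA cultures of BT-549 cells, with groups and replicate numbers taken from the sample titles. Per the labels and methods, the authors prepared TruSeq Stranded mRNA libraries, aligned reads with STAR to GRCh38 and compared groups with DESeq2. The deposited table of expression values gives TPM per gene and library, and the tool that made them is not given in the sources used here. From the deposited comparison table the mean normalized count (a signal averaged by the authors over both groups, each count divided by its library's size factor) was used to recover reads. The fold changes and p-values in that table are the comparison made by the authors and were not used.

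Values were transformed to log2(TPM + 1), genes with a mean of at least 1 TPM were kept, and groups were compared with limma 3.58.1 (lmFit and eBayes with trend, two-sided) in R 4.3.3 without a replicate block. Adjustment of p-values followed Benjamini and Hochberg over 10721 genes, and the threshold was 0.05. The standard errors come from this fit. The unit of a fold change is thus log2(TPM + 1), which understates changes of low genes. The 34 members and the other lists were chosen with earlier results of these data known, so no list was tested, and lists are described by counts and medians beside all genes tested. Named genes are all members, ABCA1, NEAT1, and genes of the other lists past the threshold with a log2 fold change of at least 0.5 in size. Cell markers are named as well, and all other names (the partner factors, FADS3, genes sharing exonic bases with a member and those marked in the text) were chosen after values were seen. The results of some other genes are not reported here.

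Reads came out within 0.05 of a whole number for 99.8% of values above 0 in 5043 genes with a mean normalized count under 5, for 98.6% in 2535 genes from 5 to 50, for 69.7% in 4553 genes from 50 to 500 and for 12.6% in 6400 genes above that, so those of abundant genes are approximate. Same-numbered libraries were not paired in the main fit, since the study stated no covariate. Their deviations from the group means correlated at -0.03, 0.25 and -0.11. Library trends on GC content add to these deviations, so the values cannot show whether the cultures were paired. Between libraries of a group, recovered reads differed by more than sampling noise, with a chi-square of 4.58 to 14.3 per degree of freedom. No library was thus a copy of another, but this cannot show that the cultures were independent. GENCODE gave coordinates, exon overlaps, GC content and transcript length on GRCh38, where 22278 symbols matched, 779 matched by an older symbol and 2488 did not. Alternatives were a pseudocount of 0.1 TPM, no filter, a minimum of 5 TPM, centring on the median, quantile normalization, a fit of eBayes with no trend, a replicate block, each library left out, voom on recovered reads with a mean of at least 10 (scaled by the median of ratios, chosen after seeing the data in place of TMM, which was not run), removal of GC and length trends (splines with 4 degrees of freedom), the last with the block, and an adjusted p under 0.01. The fit was tested on simulated data, with changes larger than that of any member and no trend on GC content. That setting differs from these libraries, so it does not measure how reliable the calls here are.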

Additional observations from a re-analysis of the deposited data

How the results depend on the processing

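The calls of INSIG1, FDFT1, SCD and FADS2 held under every alternative that was run, and those of HMGCS1, IDI1 and ELOVL6 under all but the fit with no filter on TPM. The call of MVK was also lost with no filter, and MVK was not tested at a minimum of 5 TPM. Members called higher numbered 12, 5 with no filter (lower 0), 7 at an adjusted p under 0.01 and 7 to 12 when each library was left out, with 7 without CsiRNA replicate 2. Sterol genes called higher numbered 5, 1 with no filter and 9 after quantile normalization, centring on the median or voom on recovered reads. The sterol genes gained were ACAT2, MSMO1 and SQLE in each of these fits, LSS after quantile normalization and voom, and TM7SF2 after centring. INSIG2 also passed after centring. Fatty acid genes called higher numbered 4, 2 at an adjusted p under 0.01 and 2 to 4 when each library was left out, with 2 without CsiRNA replicate 1 or 2. With a minimum of 5 TPM the fatty acid median was -0.0186 in place of 0.28, since LPIN1 and ACSS2 were left out, and the sterol median minus the fatty acid median was 0.15 in place of -0.14. Over all genes 535 were called higher and 963 lower, 242 and 263 with no filter, which tested 18531 genes, 1082 and 1109 after quantile normalization, 1158 and 954 after centring, and 1382 and 1397 with voom. With the GC and length trends removed they were 824 and 1564, and 902 and 1748 when the block was added. With the block alone they were 579 and 1061. When each library was left out, they ranged from 376 to 540 higher and from 383 to 1590 lower.

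With the replicate block, 12 members were called higher and 1 lower, the same 13 genes, and with GC and length trends removed as well, 15 and 1. The block alone changed no call among the members. Added to the fit with GC and length trends removed, which called 13 higher, it brought in MSMO1 and SQLE. The samples share only a number.

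Signs turned only for fold changes near 0. After quantile normalization, centring and voom respectively, PMVK was at 0.0492, 0.0496 and 0.0456, CYP51A1 at 0.0176, 0.0398 and 0.0306, NSDHL at 0.0164, 0.0259 and 0.0160, ACLY at 0.0155, 0.0383 and 0.0286 and FADS3 at 0.0436, 0.0428 and 0.0214. With GC and length trends removed, with or without the block, SC5D was at -0.0090 and ACLY at 0.0267. When each library was left out, the log2 fold change of PMVK ranged from -0.0606 to 0.0673, FDPS from -0.00712 to 0.10, CYP51A1 from -0.119 to 0.0461, NSDHL from -0.0821 to 0.0261, SC5D from -0.0762 to 0.109, DHCR7 from -0.0564 to 0.0758, ACLY from -0.0594 to 0.0228 and FADS3 from -0.114 to 0.0526. The cause of these changes was not tested. TM7SF2 and HSD17B7 had the fewest recovered reads of the members, with means of 75.2 and 94.5 over the 6 libraries.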

Other observations

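Of 40 further fatty acid and glycerolipid genes with a row, 31 were tested. Of these 31, 2 (6.45%) were called higher and 1 (3.23%) lower, against 4.99% and 8.98% of all genes. The median log2 fold change of the 31 was -0.02. All 3 called genes were named after their values were seen. ELOVL7, an elongase of long-chain fatty acids, was at 3.77, 3.80 and 3.47 TPM with CsiRNA and at 5.12, 6.85 and 4.79 TPM with NEAT1siRNA. It was higher in every NEAT1siRNA library, with a log2 fold change of 0.48 (SE 0.11, adjusted p = 0.00326, limma). SLC25A1, the mitochondrial citrate carrier that feeds ACLY, was at 15.7, 13.6 and 14.9 TPM against 18.7, 20.1 and 18.0 TPM. Its groups did not overlap, with a log2 fold change of 0.34 (SE 0.09, adjusted p = 0.0154, limma) that was not past the threshold without CsiRNA replicate 2 (0.29). DGAT1, which makes triacylglycerol, was at 6.83, 6.27 and 5.98 TPM against 4.76, 4.38 and 4.87 TPM. It was lower in every NEAT1siRNA library, with a log2 fold change of -0.38 (SE 0.09, adjusted p = 0.00804, limma) that was not past the threshold without CsiRNA replicate 1 (-0.33). With no filter on TPM none of the 3 passed it. Thus ELOVL7 rose while ELOVL6 fell in the same libraries, and no test compared them.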
